A study of Mus musculus with 6 samples.

Results

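The 10 genes described here are 6 chemokine ligands (Cxcl1, Cxcl5, Cxcl12, Cxcl14, Ccl2 and Ccl7) and 4 genes of the NF-κB pathway (Nfkb1, Nfkbia, Nfkbiz and Tnfaip3). They were chosen by name, and all 10 were found by Ensembl identifier among the 22032 genes of a mouse RNA-seq matrix. The matrix held 6 samples of chondrocytes, the cells of cartilage. Of these, 3 came from embryos, whose stage is written 16.5 weeks in the labels and embryonic day 16.5 in the methods. The other 3 came from adult mice of 2 months, which the methods give as male B6 animals. The sex and strain of the embryos are not given in the sources used here. Cells of both stages were freed by enzyme digestion and sorted by flow cytometry. The kept cells were free of blood lineage markers (CD45- and Ter119-), of the endothelial marker CD31 (CD31-) and of alkaline phosphatase (ALP-). They carried the receptor BMPR1B on their surface. No sample was treated or genetically altered as far as the labels say, so the only comparison is adult against embryonic. The labels call the 3 samples of a stage biological replicates, but the number of animals behind each is not given, and the p-values measure only the spread between these samples.

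Chemokines are small secreted proteins that draw leukocytes along a gradient, and they are named by the spacing of their first cysteines (CXC or CC). Inflammatory ones are barely made by resting connective tissue cells and are switched on by TNF, IL-1 or bacterial products through NF-κB, a family of dimeric transcription factors that IκB proteins hold in the cytoplasm. When the IκB kinase (IKK) complex marks IκB for destruction the dimers enter the nucleus, and among the first genes they turn on are those of their own inhibitors. Nfkbia and Tnfaip3 belong to this feedback. In cartilage the pathway is known for driving matrix-degrading enzymes during joint inflammation.

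The promoters of these genes are shown because the feedback rests on κB motifs upstream of the start site. RefSeq windows of GRCm38.p6 were at hand for 5 of the 10 genes, namely Cxcl1, Cxcl12, Cxcl14, Nfkbia and Tnfaip3. The stretches below are the 250 bases before the start, 5′ to 3′ on the strand of the gene, with matches on either strand to the κB consensus or to the AP-1 motif TGANTCA in capitals. AP-1 is the dimer of Fos and Jun proteins. The inflammatory chemokine Cxcl1 is shown at chr5:90890995-90891244 on the plus strand and Nfkbia at chr12:55492648-55492897 on the minus strand. The window of the upstream RefSeq start of Tnfaip3 is at chr10:19015411-19015660 on the minus strand. GENCODE M21 starts this gene at 19015657, so almost all of that window lies inside the gene as annotated there. The homeostatic chemokine Cxcl12, at chr6:117168285-117168534 on the plus strand, is shown for contrast.
Cxcl1: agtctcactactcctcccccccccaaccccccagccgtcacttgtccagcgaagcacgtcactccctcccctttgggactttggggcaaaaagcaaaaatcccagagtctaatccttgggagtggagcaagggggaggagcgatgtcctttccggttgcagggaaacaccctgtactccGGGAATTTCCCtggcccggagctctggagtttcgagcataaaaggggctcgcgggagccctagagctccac
Nfkbia: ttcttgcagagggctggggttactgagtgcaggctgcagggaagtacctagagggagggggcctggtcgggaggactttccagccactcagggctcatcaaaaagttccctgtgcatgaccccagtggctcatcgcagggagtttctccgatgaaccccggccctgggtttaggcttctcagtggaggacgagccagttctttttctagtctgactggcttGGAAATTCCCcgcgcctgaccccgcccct
Tnfaip3: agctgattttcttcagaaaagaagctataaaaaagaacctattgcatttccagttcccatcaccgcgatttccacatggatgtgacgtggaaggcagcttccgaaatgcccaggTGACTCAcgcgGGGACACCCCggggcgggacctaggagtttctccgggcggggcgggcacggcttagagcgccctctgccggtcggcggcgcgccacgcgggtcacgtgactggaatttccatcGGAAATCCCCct
Cxcl12: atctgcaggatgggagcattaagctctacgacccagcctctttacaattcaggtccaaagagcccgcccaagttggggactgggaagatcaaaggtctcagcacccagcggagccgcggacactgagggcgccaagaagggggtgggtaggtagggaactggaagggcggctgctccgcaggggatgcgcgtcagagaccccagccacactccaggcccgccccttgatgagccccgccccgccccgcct
In the Cxcl1 window 2 overlapping κB matches ran from -71 to -62 and from -70 to -61, counted from the RefSeq start. The Nfkbia window held 1 match, from -29 to -20. The Tnfaip3 window held κB matches from -125 to -116 and from -12 to -3, and an AP-1 match from -136 to -130 that did not overlap them. No match to either motif was found in the Cxcl12 or Cxcl14 windows or in the window of the second Tnfaip3 start. Among the promoter windows of all 27025 genes in the table, 4.46% of genes held a κB match and 7.82% an AP-1 match, against 3 of 5 and 1 of 5 genes here. A κB match was also held by 4 of 7 other NF-κB subunit and IκB genes and 5 of 24 other chemokine ligands. For AP-1 these counts were 2 of 7 and 4 of 24. The 5 genes were not drawn at random, and a match describes letters and not a bound site.

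Of the 10 genes, 3 were higher in adult chondrocytes (Cxcl1, Cxcl5 and Nfkbia), 3 were lower (Cxcl12, Ccl2 and Nfkbiz) and 4 did not pass the test. The test was limma on the log2(TPM + 1) values with a Benjamini-Hochberg adjusted p under 0.05 over the 13125 genes whose mean reached 1 TPM, all 10 genes among them. TPM is a share of all transcripts corrected for transcript length, so that levels of genes can be ranked within a sample. Over all genes tested 45.3% were called (23.9% higher and 21.4% lower in the adult), so 6 calls among 10 genes do not set them apart from the matrix. The median log2 difference of the 10 genes was -0.10, and that of all genes was 0.16. The adult lay wholly above the embryonic range for 4 of the genes and wholly below it for 4. Of all genes 56.5% had ranges that did not overlap, 30.7% with the adult above and 25.9% with it below. Cxcl1 had the highest median of the 10 genes at both stages. The lowest was Cxcl5 in the embryo and Ccl7 in the adult, although the adult ranges of Ccl7, Cxcl5 and Tnfaip3 overlapped. For 8 of the 10 genes adult replicate 3 had the highest adult level, Cxcl5 and Nfkbia being the exceptions. The share of all genes with their highest adult level in that replicate was not counted.

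**Figure D1:**
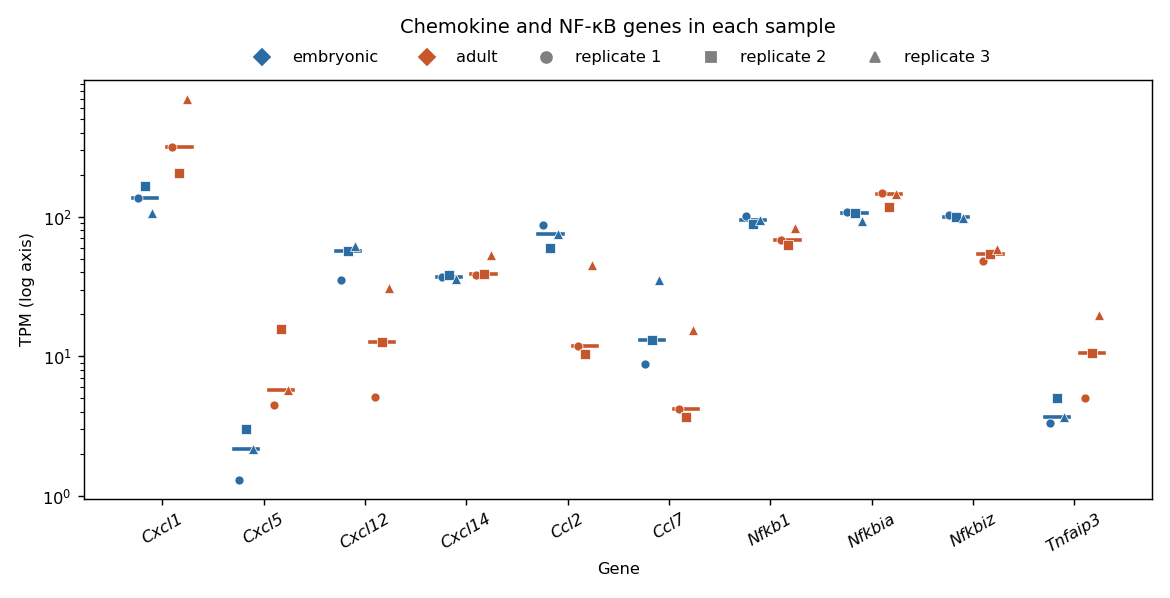
Level of each of the 10 genes in every sample, in TPM on a log axis, with the 3 embryonic and the 3 adult samples as separate points and their medians as lines. Ccl2 and Cxcl12 sit lower in the adult with replicate 3 nearest to the embryonic range, and Cxcl1 reaches its highest value in that same adult sample.

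Cxcl1 and Cxcl5 encode CXC chemokines that recruit neutrophils through the receptor Cxcr2. Cxcl1 was the highest of the 10 genes, and its adult samples were above every embryonic sample. Its level was 136, 167 and 106 TPM in embryonic replicates 1 to 3 and 318, 207 and 696 TPM in the adult replicates. All adult values exceeded the embryonic ones, by little in adult replicate 2 and by much in adult replicate 3. On the log2(TPM + 1) scale the mean was 7.07 ± 0.33 (SD, n = 3) in the embryo and 8.49 ± 0.88 in the adult. The log2 difference was 1.41 (SE 0.383, adjusted p = 0.0159 by limma). Without adult replicate 3 it fell to 0.94 and still passed, while without embryonic replicate 1 or 3 it did not (adjusted p = 0.0534 and 0.0697; 0.00482 to 0.173 over all alternatives). The samples are bulk RNA, in which fewer cells of a kind and less RNA per cell cannot be told apart.

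Cxcl5 was present at far lower levels than Cxcl1, with 1.31, 3.03 and 2.16 TPM in the embryonic and 4.51, 15.6 and 5.70 TPM in the adult samples. The ranges did not overlap, and adult replicate 2 was the highest. In log2 terms the difference was 1.46 (SE 0.516, adjusted p = 0.0459), a call that was lost under most alternatives (adjusted p 0.0336 to 0.149) and fell to 0.98 without adult replicate 2. Both genes lie in a CXC cluster on chromosome 5 (GRCm38, GENCODE M21), Cxcl5 at 90759360-90761624 and Cxcl1 at 90891241-90893115, both on the plus strand.

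Of the neighbours in that cluster, Cxcl3, another neutrophil-attracting ligand, was at 0.263, 0.124 and 0 TPM in the embryo and at 12, 10.1 and 97.5 TPM in the adult. Adult replicate 3 again stood above the others. Its log2 difference was 4.43 on the log2(TPM + 1) scale (SE 0.777, adjusted p = 0.002), which understates changes of genes this low. Cxcl2, a close relative that shares part of its sequence with Cxcl3, was at 21.2, 34.7 and 20.9 TPM in the embryo and 81.5, 13.1 and 34.7 TPM in the adult. Its ranges overlapped and it did not pass the test, and its difference turned below 0 without adult replicate 1 (-0.21). The receptor Cxcr2 was low throughout, at 1.07, 1.56 and 1.99 TPM in the embryo and 5.98, 2.44 and 0.173 TPM in the adult.

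Of the homeostatic chemokines, Cxcl12 was lower in the adult and Cxcl14 did not pass the test. Cxcl12, which retains blood-forming cells in the marrow and guides migrating progenitors through the receptor Cxcr4, was at 35.4, 56.8 and 61.7 TPM in the embryo and at 5.14, 12.6 and 30.6 TPM in the adult. The ranges did not overlap, but adult replicate 3 came close to embryonic replicate 1. This gave a log2 difference of -1.88 (SE 0.526, adjusted p = 0.0182). It ranged from -2.48 without adult replicate 3 to -1.30 without adult replicate 1, and did not pass without embryonic replicate 2 or 3 (adjusted p = 0.0734 and 0.0748; 0.00324 to 0.0748 over all alternatives). Cxcl12 lies on chromosome 6 at 117168535-117181367 on the plus strand.

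Cxcl14, a chemokine expressed without induction in many epithelia and stromal cells, was at nearly one level in 5 of the 6 samples. It was at 37.1, 38.3 and 35.9 TPM in the embryo and at 38.3, 38.6 and 53.3 TPM in the adult. The ranges touched, and adult replicate 3 alone stood higher. By limma the log2 difference came to 0.20 with a 95% interval from -0.23 to 0.64 (adjusted p = 0.414). Without adult replicate 3 the difference was 0.05. The gene lies on the minus strand of chromosome 13 at 56288643-56296551.

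The receptors of Cxcl12 were both read. Cxcr4, its signalling receptor, was at 13.8, 17.1 and 4.87 TPM in the embryo and at 2.33, 2.01 and 3.01 TPM in the adult. All adult values were below the embryonic ones, of which replicate 3 was the lowest. The log2 difference was -1.76 (SE 0.488, adjusted p = 0.0175), and it did not pass without embryonic replicate 1 or 2. Ackr3, a scavenging receptor that takes up Cxcl12 without G protein signalling, was much higher, at 91.4, 95.1 and 114 TPM in the embryo and 106, 81.5 and 111 TPM in the adult. Its ranges overlapped, with a log2 difference of -0.01 (SE 0.168, adjusted p = 0.95) whose sign turned with quantile normalization and with rescaling without the 20 highest genes.

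Ccl2 and Ccl7 encode monocyte-attracting CC chemokines that share the receptor Ccr2 and lie side by side on the plus strand of chromosome 11, at 82035571-82037453 and 82045712-82047525. Ccl2 was lower in the adult, with 87.9, 59.5 and 74.8 TPM in the embryonic and 11.9, 10.3 and 45.1 TPM in the adult samples. The ranges did not overlap. Adult replicates 1 and 2 lay close together, and replicate 3 lay between them and the embryo. In log2 terms the difference was -1.97 (SE 0.479, adjusted p = 0.00978), and it passed under all alternatives, from -2.61 without adult replicate 3 to -1.60 without adult replicate 2 when each sample was left out in turn.

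Ccl7 was at 8.75, 13.1 and 35.4 TPM in the embryo and at 4.19, 3.66 and 15.4 TPM in the adult. The ranges overlapped through adult replicate 3, and embryonic replicate 3 was the highest. This gave a log2 difference of -1.22 (SE 0.615, adjusted p = 0.135). Without adult replicate 3 the difference was -1.80 and passed (adjusted p = 0.0401; 0.0259 to 0.423 over all alternatives), and without embryonic replicate 3 it was -0.68 and did not. The receptor Ccr2 was at or near 0 in all samples, and the nearby ligand genes Ccl8 and Ccl12 were listed at 0 in all 6. Ccl11, next to Ccl7 and named after its values were seen, was at 0, 2.56 and 2.55 TPM in the embryo and listed at 0 in the adult.

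**Figure D2:**
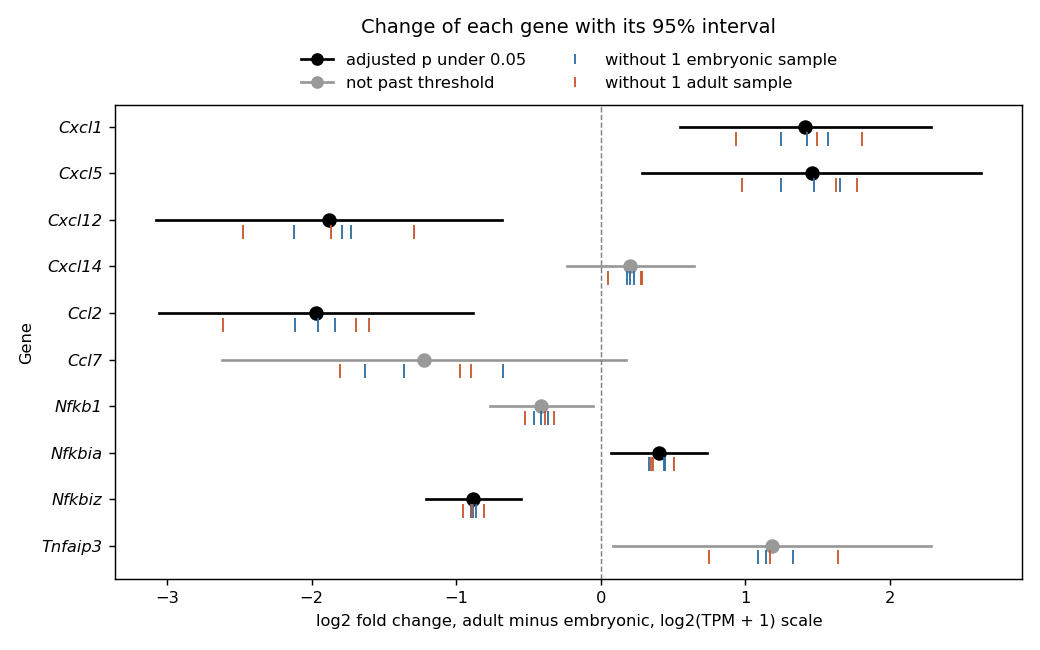
Log2 difference, adult minus embryonic, of each of the 10 genes with its 95% interval from limma, with the values obtained when each sample was left out in turn. Ccl2, Nfkbiz and Cxcl12 lie left of 0 and Cxcl1, Cxcl5 and Nfkbia right of it, and no value obtained by leaving out a sample crossed 0 for any of the 10.

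The remaining chemokine system was sparse. Of 32 other chemokine ligands 13 were listed at 0 in every sample and 10 were tested. Of these 3 rose and 1 fell in the adult, or 40% called against 45.3% of all genes, with a median log2 difference of 0.72. Among them was Ccl5, a ligand that attracts T cells and macrophages, from 0.619, 3.16 and 1.47 TPM to 144, 97.4 and 16.7 TPM. Here adult replicate 3 was the lowest adult sample, unlike for Cxcl1 and Ccl2. By limma the log2 difference came to 4.63 (SE 0.733, adjusted p = 0.00118). Cxcl16, a membrane-anchored ligand that shares sequence with the overlapping gene Zmynd15, was also higher (1.46, adjusted p = 0.0129). Cxcl10, an interferon-induced ligand for T cells, was lower, at 15.7, 10.6 and 10.1 TPM in the embryo and 0, 0.713 and 0.456 TPM in the adult. Its log2 difference was -3.25 (SE 0.432, adjusted p = 4.5e-04).

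Of 23 chemokine receptors 6 were tested, 2 higher and 1 lower (Cxcr4, above), or 50% called against 45.3% of all genes, with a median of 0.91. Ackr2, a decoy receptor that degrades inflammatory CC chemokines such as Ccl2 and Ccl5, was at 5.77, 13.3 and 8.56 TPM in the embryo and at 32.3, 106 and 84.8 TPM in the adult. The ranges did not overlap, and the log2 difference was 2.79 (SE 0.453, adjusted p = 0.00133).

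Summed over the 38 ligands, chemokine transcripts made up 400, 439 and 398 TPM in the embryonic samples and 696, 477 and 1103 TPM in the adult. All adult sums were above the embryonic ones, with the mean 1.84 times as high, and 1.42 times without adult replicate 3. The smallest p that an exact permutation test of 3 against 3 samples allows is 0.1, so the sum was not tested further. The makeup of this pool differed between the stages. Cxcl1 was 33.9%, 38.0% and 26.6% of it in the embryo and 45.7%, 43.4% and 63.1% in the adult. Ccl2 went from 22.0%, 13.6% and 18.8% to 1.72%, 2.17% and 4.09%, and Cxcl12 from 8.85%, 13.0% and 15.5% to 0.739%, 2.65% and 2.77%. None of these shares overlapped between the stages, and those of Ccl7 did not. That of Cxcl14, whose level did not pass the test, did not overlap either, at 9.27%, 8.74% and 9.03% and 5.51%, 8.09% and 4.84%. A share can fall because other ligands of the pool are higher. The shares of Cxcl5 did overlap, at 0.327%, 0.691% and 0.544% in the embryo and 0.648%, 3.27% and 0.517% in the adult. Ccl5, under 1% of the pool in every embryonic sample, was 20.7% and 20.4% of it in adult replicates 1 and 2 and 1.51% in adult replicate 3.

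**Figure D3:**
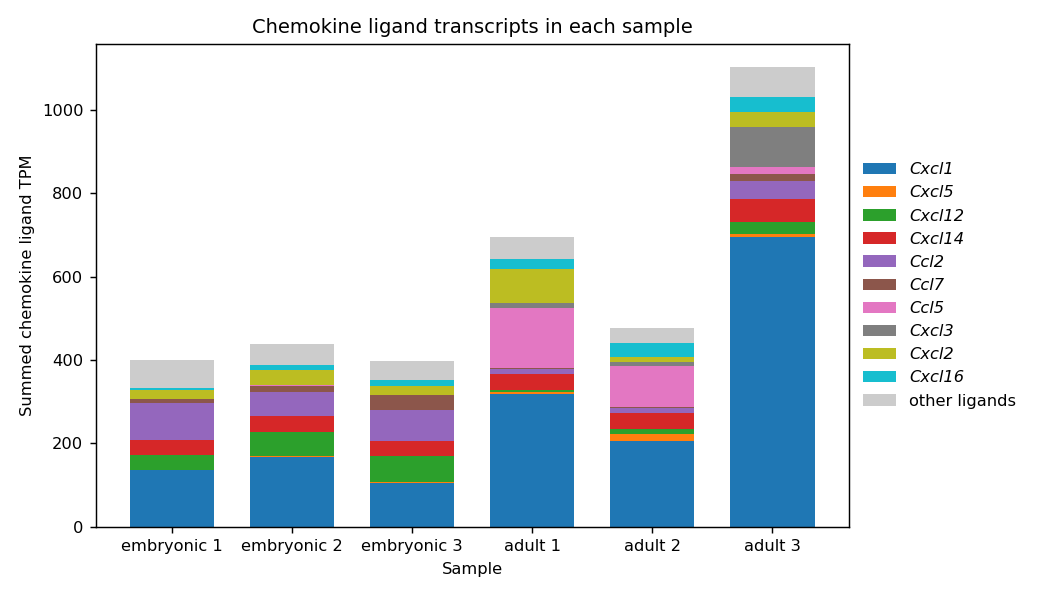
Summed TPM of the 38 chemokine ligands in each of the 6 samples, as stacked bars with one colour for each main ligand and a last colour for the rest. Cxcl1 is the largest segment in every sample, while the Ccl2 and Cxcl12 segments are thin in the adult bars and Ccl5 is visible in adult replicates 1 and 2.

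Of the 4 NF-κB genes Nfkbiz was lower and Nfkbia higher in the adult, and Tnfaip3 and Nfkb1 did not pass the test. Nfkbiz encodes IκBζ, an inducible nuclear IκB protein that helps p50 dimers turn on secondary genes such as Il6 and Lcn2. It was at 102, 99.5 and 98.1 TPM in the embryonic and 48.4, 54.2 and 59.2 TPM in the adult samples. The samples of a stage lay close together and the ranges were far apart. The log2 difference was -0.88 (SE 0.145, adjusted p = 0.0014), and it passed under all alternatives, with -1.03 as the lowest value and -0.79 as the highest. The gene lies on the minus strand of chromosome 16 at 55811375-55838899.

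Nfkbia encodes IκBα, the classical inhibitor that is destroyed and resynthesised with each round of activation. It was slightly higher in the adult, at 147, 118 and 144 TPM against 108, 107 and 92.7 TPM in the embryo. The ranges did not overlap, adult replicate 2 lying nearest to the embryo. In log2 terms the difference was 0.40 (SE 0.146, adjusted p = 0.0489). It lost the call under most alternatives, and with median-of-ratios scaling which lowered the median of all genes from 0.16 to 0.03, the adjusted p was 0.185 (0.0208 to 0.33 over all alternatives). The gene is on the minus strand of chromosome 12 at 55489410-55492647.

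Tnfaip3 encodes A20, a ubiquitin-editing enzyme that shuts off signals from TNF and Toll-like receptors. It was far less abundant than Nfkbia, at 3.35, 5.06 and 3.69 TPM in the embryonic and 5.06, 10.6 and 19.7 TPM in the adult samples. Adult replicate 1 equalled the highest embryonic value at this rounding, and replicate 3 was the highest. This gave a log2 difference of 1.19 (SE 0.485, adjusted p = 0.075), and it passed only without adult replicate 1 (1.64, adjusted p = 0.0213; 0.0213 to 0.209 over all alternatives). Without adult replicate 3 it was 0.75. Tnfaip3 lies on the minus strand of chromosome 10 at 19000910-19015657.

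Nfkb1 encodes p105 and its product p50, the DNA-binding partner in many NF-κB dimers. It was at 101, 88.4 and 94.9 TPM in the embryo, and its adult values were 68.5, 62.7 and 83.2 TPM. All adult samples were below the embryonic ones, by little in adult replicate 3. The log2 difference of -0.41 (SE 0.157, adjusted p = 0.0598) did not pass. Without adult replicate 3 it was -0.53 (adjusted p = 0.0236) and with median-of-ratios scaling -0.56 (adjusted p = 0.0163), while the highest adjusted p over all alternatives was 0.167. Nfkb1 is on the minus strand of chromosome 3 at 135584655-135691547.

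The other subunits and IκB proteins were then read from a list of 8 genes, all tested. In the adult 4 rose and 1 fell, or 62.5% called against 45.3% of all genes, and the median log2 difference was 0.83. The higher genes were Nfkb2, Relb, Bcl3 and Nfkbie. Nfkb2, the precursor of p52, was at 49.9, 39.4 and 39.2 TPM in the embryo and 73.1, 64.1 and 90.9 TPM in the adult (0.81, SE 0.19, adjusted p = 0.00834). Relb, the partner of p52, was at 17.9, 18.9 and 25 TPM and 33.6, 38.9 and 41.4 TPM (0.86, SE 0.218, adjusted p = 0.0119). Neither gene had overlapping ranges. Bcl3, a nuclear IκB protein, rose by a log2 difference of 1.60 (adjusted p = 0.0122), and Nfkbie, which encodes IκBε, by 1.30 (adjusted p = 0.0335), a call lost under 9 of 17 alternatives. Rela, the main activating subunit, was at 179, 158 and 172 TPM in the embryo and 138, 158 and 200 TPM in the adult, with overlapping ranges and a log2 difference of -0.05 (adjusted p = 0.802) that turned positive under the same scalings. Rel, a subunit best known from lymphocytes, was lower, at 11.3, 9.40 and 10.9 TPM and 2.97, 4.69 and 6.40 TPM (-1.06, adjusted p = 0.0424), a call lost when any one sample other than adult replicate 3 was left out.

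Among 21 genes of the IKK complex and its adaptors, all tested, 9 were higher and 4 lower, with a median of 0.81. That was 61.9% called against 45.3% of all genes. Ikbkg, the regulatory subunit NEMO, was at 14.3, 8.42 and 13.0 TPM in the embryo and 116, 95.2 and 72.3 TPM in the adult. The groups were far apart, with a log2 difference of 2.89 (SE 0.262, adjusted p = 5.8e-05). Ikbkb, the kinase of the canonical branch, was also higher (1.05, SE 0.206, adjusted p = 0.00359), and Chuk, the kinase of the non-canonical branch, was lower at the edge of the threshold (-0.60, SE 0.217, adjusted p = 0.0499). Irak2, a kinase that relays Toll-like and IL-1 receptor signals, was at 4.12, 3.15 and 6.60 TPM in the embryo and 52.4, 47.2 and 56.3 TPM in the adult (3.28, SE 0.297, adjusted p = 5.8e-05). Irak4, the kinase acting before it, rose by 2.26 (adjusted p = 0.00357). The lower genes besides Chuk were Tab3 (-1.16) and Tab2 (-0.85), adaptors of the kinase TAK1, and Map3k14 (-0.78), the NIK kinase of the non-canonical branch. The call was lost under 11 of 17 alternatives for Chuk and 10 for Map3k14, and for Tab3 without embryonic replicate 1 or 2.

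Of 14 other feedback inhibitors 13 were tested, and 23.1% were called against 45.3% of all genes, with a median of 0.16. By limma 3 were higher and 0 lower, also at an unadjusted p under 0.05. They were Tnip1, an A20-binding protein, Zc3h12a, an RNase that cleaves cytokine transcripts, and Irak3, an inhibitory kinase homologue. Tnip1 was at 34.4, 17.5 and 13.5 TPM in the embryo and 123, 107 and 125 TPM in the adult (2.49, SE 0.303, adjusted p = 2.9e-04). Zc3h12a was at 4.8, 5.44 and 6.95 TPM and 34.0, 41.8 and 31.1 TPM (2.44, SE 0.274, adjusted p = 1.8e-04). In both genes the adult lay wholly above the embryo, as it did for Irak3 (1.43, adjusted p = 0.00694).

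Of 26 signals and receptors ahead of IKK, 18 were tested, and 12 of them did not pass. Among them 3 were higher and 3 lower, or 33.3% called against 45.3% of all genes, with a median of 0.37. The Toll-like receptors Tlr2 and Tlr4, which sense bacterial products and damaged matrix, were higher. Tlr2 was at 35.2, 39.8 and 35.1 TPM in the embryo and 177, 233 and 244 TPM in the adult (2.53, SE 0.165, adjusted p = 1e-05). Tlr4 was at 9.87, 8.30 and 12.7 TPM and 59.8, 82.0 and 106 TPM (2.87, SE 0.266, adjusted p = 6.6e-05). The IL-17 receptor chain Il17ra rose by 0.88 (adjusted p = 0.00723).

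In the other direction, Il1r1, the signalling receptor for IL-1, was at 88.5, 82.0 and 92.2 TPM in the embryo and 15.6, 17.8 and 18.8 TPM in the adult (-2.27, SE 0.174, adjusted p = 2.4e-05). Tnfrsf12a, the receptor for TWEAK, was at 630, 714 and 651 TPM and 143, 98.5 and 162 TPM (-2.33, SE 0.182, adjusted p = 2.6e-05). Tnfsf11 encodes RANKL, the ligand that drives osteoclast formation, and fell by 3.02 on the log2 scale (adjusted p = 0.00368). The TNF receptor Tnfrsf1a did not pass (0.23, adjusted p = 0.212). Of the cytokines that start the pathway, Tnf was listed at 0 in the embryo and at 0.352, 0.487 and 0 TPM in the adult, and Il1b was listed at 0 in all samples except adult replicate 1, where it was at 6.75 TPM.

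**Figure D4:**
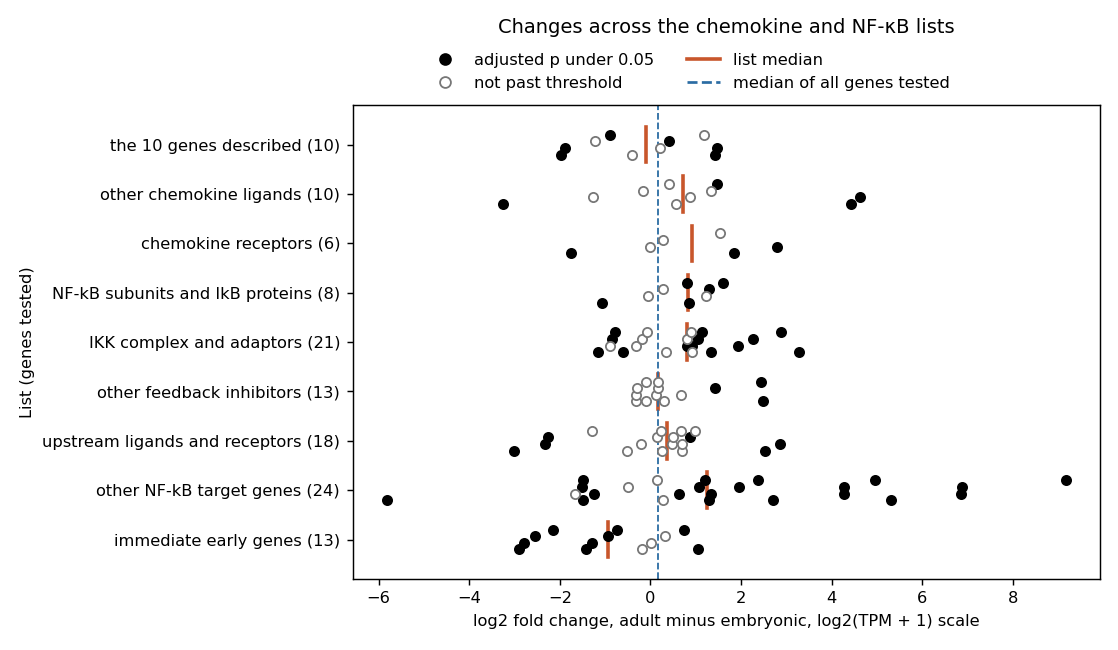
Log2 difference, adult minus embryonic, of every tested gene of the 10 genes, the 7 pathway lists and the immediate early genes, 1 point per gene, coloured by whether it passed the limma threshold, with a line at the median of the list. The 10 genes described spread on both sides of 0 with a median of -0.10, and the other target genes have a median of 1.25 and run from -5.83 to 9.19.

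Beyond the 10 genes, 24 further NF-κB targets of 27 listed were tested, and 15 were higher and 5 lower. That was 83.3% called against 45.3% of all genes, with a median of 1.25 against 0.16. The list was chosen with earlier results of these data known. Mmp3, the enzyme stromelysin that degrades proteoglycans, rose by a log2 difference of 9.19 (SE 0.261, adjusted p = 1.1e-07). Lcn2, an iron-scavenging protein, was at 4.13, 1.52 and 0 TPM in the embryo and 318, 175 and 365 TPM in the adult (6.87, SE 0.547, adjusted p = 2.9e-05). Nos2, the inducible nitric oxide synthase, was listed at 0 in embryonic replicates 1 and 2, was at 0.392 TPM in replicate 3, and was at 124, 147 and 123 TPM in the adult. Targets that fell were Tnfaip6, whose product TSG-6 crosslinks hyaluronan, from 313, 468 and 316 TPM to 1.20, 11.5 and 8.32 TPM (-5.83, SE 0.56, adjusted p = 7.8e-05), the hyaluronan receptor Cd44 (-1.51, adjusted p = 3.8e-05) and the interferon factor Irf1 (-1.49, adjusted p = 0.0113), whose call was lost without embryonic replicate 1 or 3. Genes of this list lay at both ends of the range.

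The immediate early genes, which cells switch on within minutes of stimulation or handling, were read beside these results. Of 13, all tested, 2 were higher and 8 lower in the adult, or 76.9% called against 45.3% of all genes, with a median of -0.93. Nr4a1, a nuclear receptor, was at 318, 319 and 301 TPM in the embryo and 33.2, 28.4 and 73.1 TPM in the adult (-2.90, SE 0.304, adjusted p = 1.3e-04). The factors Egr3 (-2.79) and Atf3 (-2.56) followed, and Jun was lower by a log2 difference of -0.93 (adjusted p = 0.00417). Dusp1, a phosphatase of MAP kinases, and Junb were higher (1.04 and 0.75), and Fos (0.32, adjusted p = 0.0624) and Egr1 (-0.20, adjusted p = 0.331) did not pass, Egr1 turning positive with quantile normalization. The part of handling in the differences of the chemokine and NF-κB genes was not tested.

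Markers of other cells moved with the stages too, where 45.3% of all genes were called. The cartilage markers Col2a1, Acan and Sox9 were at no less than 3166, 1018 and 392 TPM in any sample, but of the 8 chondrocyte markers 5 were called lower and 2 higher in the adult. Those that fell most, named after their values were seen, were Matn3 (-6.05) and Col9a1 (-5.48). The list of 8 summed to between 21772 and 23556 TPM in the embryo and between 9325 and 12324 TPM in the adult. The 13 leukocyte markers summed to between 9.98 and 14.7 TPM in the embryo and to 213, 21.6 and 133 TPM in the adult, with 4 of 8 tested higher. Of the 13, 8 were listed at 0 in adult replicate 2, and S100a8 and S100a9, named after their values were seen, were listed at 0 there and in the embryo. Ptprc and Csf1r were at or near 0, at most 2.29 and 1.54 TPM. Other markers, also named after their values were seen, were not. Cd68 was called higher, at 33.3, 17.2 and 27.5 TPM in the adult and 4.22, 5.87 and 12.6 TPM in the embryo. Itgam was called higher too, at 18.2, 1.37 and 12.1 TPM in the adult and at most 1.04 TPM in the embryo. Lyz2 reached 30.7 TPM in adult replicate 1 and did not pass. In adult replicate 2, picked after these marker values were seen, Cxcl1 was at 207 TPM, against an embryonic maximum of 167 TPM. With that adult sample alone against the embryo, the log2 difference of Cxcl1 was 0.63. No spread between adult samples enters that value. The part of leukocytes in the level of Cxcl1 was not tested.

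The 8 endothelial markers summed to between 13.1 and 45.7 TPM in the embryo and between 7.73 and 18.3 TPM in the adult, with Pecam1 at no more than 6.87 TPM and Cdh5 at no more than 2.36 TPM. Of 5 tested 1 was called, Tek, named after its values were seen, at 9.21, 9.24 and 19.0 TPM in the embryo and 0.121, 0.792 and 0.889 TPM in the adult (-3.04, adjusted p = 9.8e-04). All adult samples were above the embryonic ones for Pecam1, which did not pass. The 8 markers of fibroblasts and marrow stroma, cells known for Cxcl12 and Ccl2, summed to between 565 and 768 TPM in the embryo and to 330, 277 and 399 TPM in the adult, with 4 lower and 1 higher. All 5 tested pericyte and smooth muscle markers were lower in the adult, the list of 6 summing to between 370 and 396 TPM in the embryo and between 123 and 155 TPM in the adult. The 5 erythroid markers were uneven in both stages, from 0 to 104 TPM in the embryo and from 1.86 to 33.8 TPM in the adult. The part of these cells in the results was not tested.

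**Figure D5:**
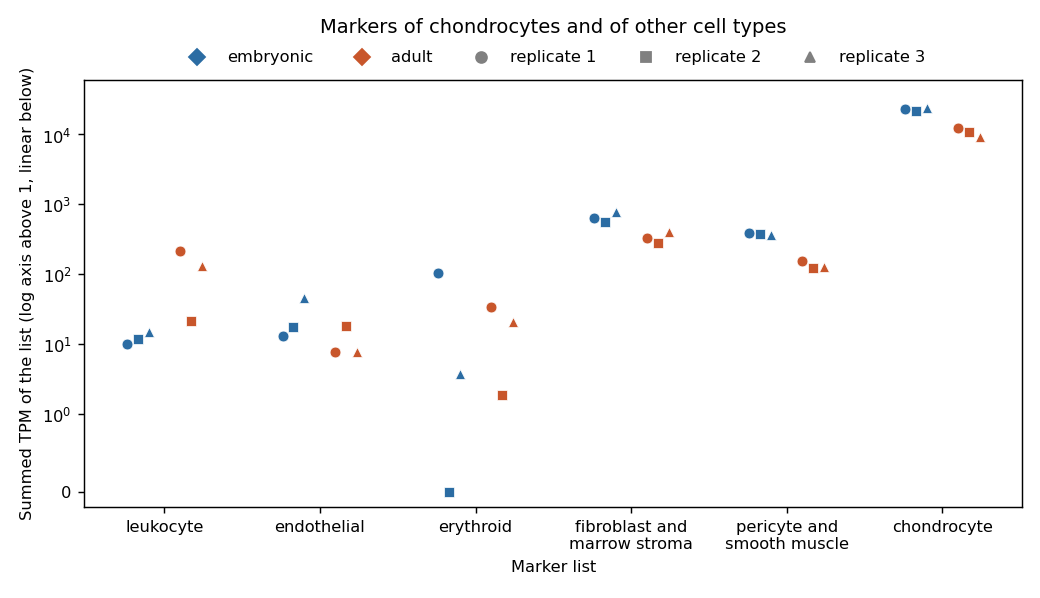
Summed TPM of each marker list in the 6 samples on an axis that is log above 1 and linear below, with separate points for the embryonic and adult samples. Stromal and pericyte sums are lower in all adult samples, and leukocyte sums are higher in adult replicates 1 and 3 than in adult replicate 2.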

How the data were processed

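The authors sequenced single-end reads of 50 bases, mapped them to GRCm38 and estimated levels with RSEM (version not given in the sources used here). They deposited log2(TPM + 1) for each gene and sample, and these deposited log2 values are the only unit used. TPM was taken back from them and adds up to 1000000 in each sample. TPM keeps no depth, so precision is judged only from how 3 samples of a stage scatter. Between 7314 and 7656 genes were at 0 in an embryonic sample and between 7570 and 8294 in an adult one.

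Symbols and positions were taken from GENCODE M21. limma 3.58.1 in R 4.3.3 (lmFit, eBayes with trend) was fitted to the genes whose mean over the samples reached 1 TPM, on log2(TPM + 1), with stage as the only term. EBSeq, which the methods name, needs counts and was not used here. The fit was also run on simulated independent values with few genes shifted, unlike these data, and no support for the calls is drawn from it. Other steps used matplotlib 3.10.9, numpy 2.4.6 and pandas 2.3.3 under Python 3.11.15.

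The 10 genes and all lists were chosen with earlier results of these data known. Named were the 10 genes, the 3 largest rises and falls past the threshold in each list, and fixed receptors, ligands, subunits, kinases and markers. Reads of 50 bases cannot be placed with certainty where genes share sequence. This held for 0.693% of the windows of 50 bases of Cxcl5, 0.428% of those of Nfkb1 and none of the other 8 genes. It was higher for some other named genes, such as 16.9% for Cxcl16, 14.9% for Nfkb2, 8.39% for Mmp3 and 4.38% for Ikbkg. It was 0 for others such as Tlr2 and Nos2. One listed target, Cebpd, was not matched to the matrix. The values of 1 gene among the receptors are not reported here.

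Same-numbered samples of the stages did not deviate together (correlations -0.0088, -0.017 and -0.022). Other settings tried were quantile and median-of-ratios scaling, rescaling after dropping the 20 highest genes, a pseudocount of 0.1, a minimum mean of 5 TPM or none, robust or untrended eBayes, a block for the replicate number, a threshold of 0.01, and leaving out each sample.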

Additional observations from a re-analysis of the deposited data

How the results depend on the processing

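None of the 10 genes changed direction under any of 17 alternatives, the last of which, leaving out adult replicates 1 and 3, was chosen after seeing the data and assumes that the lone adult sample varies like the embryonic ones. Of the 6 calls only those of Ccl2 and Nfkbiz held under all 17. The count of genes higher in the adult among the 10 went from 3 to 1 with no filter, with median-of-ratios scaling, with eBayes without trend and without adult replicates 1 and 3, and to 0 at an adjusted p under 0.01. Leaving out 1 sample at a time gave 0 to 3 higher and 2 to 5 lower. Over the pathway lists 40 of the 54 called genes passed under 16 alternatives (all but the last), and none of the 54 changed direction. At an adjusted p under 0.01, 1855 of all genes were higher and 1863 lower, receptors had 1 higher and 0 lower, subunits and IκB proteins 1 and 0, and the IKK list 1 lower. Without adult replicates 1 and 3, 1614 of all genes were higher, and counts of higher genes were 0 for the subunits, 5 for the IKK list and 1 for the feedback inhibitors, and of lower genes 0 for the receptors and subunits and 1 for the IKK list. The lower subunit, Rel, was also lost with a pseudocount of 0.1, no filter, rescaling without the 20 highest genes and the replicate block (0 lower), and the IKK list had 2 lower with no filter, without the 20 highest genes and with the block. Median-of-ratios scaling gave 1 lower feedback inhibitor.

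Leaving out each sample in turn gave 2441 to 2796 higher and 2162 to 2761 lower over all genes, 3 to 4 and 1 to 2 for other ligands, 1 to 3 and 0 to 1 for receptors, 3 to 4 and 0 to 1 for subunits, 8 to 12 and 1 to 4 for the IKK list, 3 to 3 and 0 to 1 for feedback inhibitors, 3 to 4 and 3 to 4 for upstream genes, 13 to 15 and 4 to 7 for targets, 2 to 3 and 7 to 8 for immediate early genes, and 1.42 to 2.18 for the ratio of summed ligands. Uncalled genes that turned were Cxcl2 (-0.21 without adult replicate 1 to 1.07 without adult replicate 2, and -0.88 without adult replicates 1 and 3), Cxcr2 (-0.32 without adult replicate 1 to 0.96 without adult replicate 3), Ackr3 (0.082 on dropping the 20 highest genes, 0.047 after quantile normalization, and -0.10 without adult replicate 3 to 0.12 without adult replicate 2), Rela (0.043 on dropping the 20 highest genes, 0.035 after quantile normalization, and -0.20 without adult replicate 3 to 0.068 without adult replicate 1) and Egr1 (0.078 with quantile normalization, 0.0011 without adult replicates 1 and 3). The cause was not tested.

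With the replicate number as a block, which the samples share only as a number, 5430 of all genes were called, 2871 higher and 2559 lower. Of the 10 genes Ccl7 then passed (adjusted p = 0.0259) and Nfkbia did not (adjusted p = 0.0922). TPM keeps no counts, so the counting error of low genes such as Cxcl5 and Tnfaip3 is unknown, and only 3 samples a stage were at hand.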
